A study of Mus musculus with 8 samples.

Results

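The 8 genes *Adrb1*, *Adra1a*, *Adra1b*, *Agtr1a*, *Grk2*, *Grk5*, *Agt*, and *Ace* encode receptors for catecholamines and angiotensin II, the kinases that switch such receptors off, and the precursor and converting enzyme of angiotensin II. They were taken by symbol from a table of 16994 genes, in which each symbol occurs 1 time. RNA from hearts of male WT mice and of TKO mice, in which *Tigar* is disrupted in the whole body, went into 1 library for each genotype and region. The paper names C57BL/6N for the mice behind its conditional *Tigar* allele. The strain of the WT and TKO mice is not given in the sources used here. For the infarct, border, and remote zones, mice of both genotypes had the left anterior descending coronary artery tied off for good at 16 weeks of age, and the time from surgery to tissue collection is not given for these libraries in the sources used here. Left ventricular tissue of each genotype, labelled without a zone, served as the reference here. The age of those mice and whether they were sham operated are not given for these libraries. Infarct zone RNA was pooled from 3 mice per genotype, and the number behind the other libraries is not given either. With 4 regions and 2 genotypes there were 8 libraries, so no ratio between a pair of libraries has a replicate check and none is given a p-value.

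Norepinephrine and epinephrine act on cardiac muscle mainly through the β1-adrenergic receptor, which couples to the stimulatory G protein, adenylyl cyclase, and protein kinase A and raises the rate and force of contraction. The α1-adrenergic receptors and the type 1 angiotensin II receptor couple mainly to Gq and phospholipase C. Sustained activity of both systems accompanies heart failure after infarction, and blockers of the β-adrenergic receptors, of the converting enzyme, and of the angiotensin II receptor are standard treatments.

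The libraries held 27429240 to 33799249 estimated counts. *Tigar* had 1066 to 2215 counts in the WT libraries and 51 to 87 in the TKO libraries, which set the genotypes apart as labelled. Levels are given as CPM, counts over a library total that was scaled by edgeR's TMM method. The TMM factor was 1.54 in the WT and 1.26 in the TKO infarct zone against 0.866 to 0.956 elsewhere, and with unscaled totals the median of all genes in the infarct zone against the left ventricle moved by 0.69 on the log2 scale. The 10 cardiomyocyte markers were present in every library, with a summed level of 11296 CPM in the WT infarct zone, 21719 CPM in the TKO infarct zone, and 33821 to 43325 CPM in the other libraries.

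Stretches of sequence before the transcript start were listed in RefSeq (GRCm38.p6) for 5 of the 8 genes, with 7 starts in all. *Ace* and *Adrb1* are printed because the former is the one gene of the set called higher in the infarct zone and the latter encodes the main cardiac receptor of the set, and because *Ace* has separate listed starts. Capitals mark a TATA box, searched as TATAAA, or the letters GGGCGG of a GC box, on either strand. The *Ace* windows lie at chr11:105967698-105967947 and chr11:105974939-105975188 and the *Adrb1* window at chr19:56721867-56722116, all on the plus strand and each 250 bases long.
Ace, start 1: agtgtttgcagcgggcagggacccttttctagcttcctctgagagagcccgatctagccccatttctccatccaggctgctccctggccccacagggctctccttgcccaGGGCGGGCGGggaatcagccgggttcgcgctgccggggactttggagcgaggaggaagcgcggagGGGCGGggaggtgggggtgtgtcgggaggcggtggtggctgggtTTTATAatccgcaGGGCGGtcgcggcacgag
Ace, start 2: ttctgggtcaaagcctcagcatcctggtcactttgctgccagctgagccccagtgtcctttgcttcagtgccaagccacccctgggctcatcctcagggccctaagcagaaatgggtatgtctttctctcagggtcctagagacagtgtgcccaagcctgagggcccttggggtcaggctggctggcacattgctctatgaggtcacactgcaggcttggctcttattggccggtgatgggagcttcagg
Adrb1: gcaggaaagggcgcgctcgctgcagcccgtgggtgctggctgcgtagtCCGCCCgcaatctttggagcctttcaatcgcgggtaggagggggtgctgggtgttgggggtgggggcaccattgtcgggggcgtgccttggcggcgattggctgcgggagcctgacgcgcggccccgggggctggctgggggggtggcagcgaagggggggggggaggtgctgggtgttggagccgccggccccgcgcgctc
The window of *Ace* start 1 held 1 TATA box match, 31 bases before the start and read on the minus strand, and 4 GC box matches, a pair of which overlap. That of start 2 held neither set of letters. The *Adrb1* window held 1 GC box match and no TATA box match. Over the same length, 12.4% of 32851 listed mouse starts held a TATA box match and 32.7% a GC box match. The counts are summed per gene, so use of the separate *Ace* starts was not measured.

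All 8 genes are protein coding on GRCm38. Per kilobase of annotated exon, the mean level over the 8 libraries was highest for *Ace* (21.2 CPM per kb) and *Grk2* (14.3), followed by *Agtr1a* (11.1), *Adra1b* (6.47), *Grk5* (5.71), *Adrb1* (5.14), *Adra1a* (1.52), and *Agt* (0.536). The place of *Ace* rests on the zones of infarcted hearts. In the left ventricle, *Grk2* (14.6), *Agtr1a* (11.2), and *Ace* (11) led in WT, and *Agtr1a* (15.3), *Grk2* (14.8), and *Adra1b* (10.7) lay above *Ace* (8.43) in TKO. The genes also differed in how far they varied between libraries. *Grk2* varied 1.10-fold from its lowest to its highest library and *Grk5* 1.5-fold, whereas *Adrb1* varied 3.82-fold, *Agtr1a* 4.34-fold, *Adra1a* 4.90-fold, *Ace* 4.97-fold, and *Adra1b* 7.0-fold. The plot of levels shows that the infarct zone accounts for the lowest receptor values and the highest *Ace* values.

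**Figure D1:**
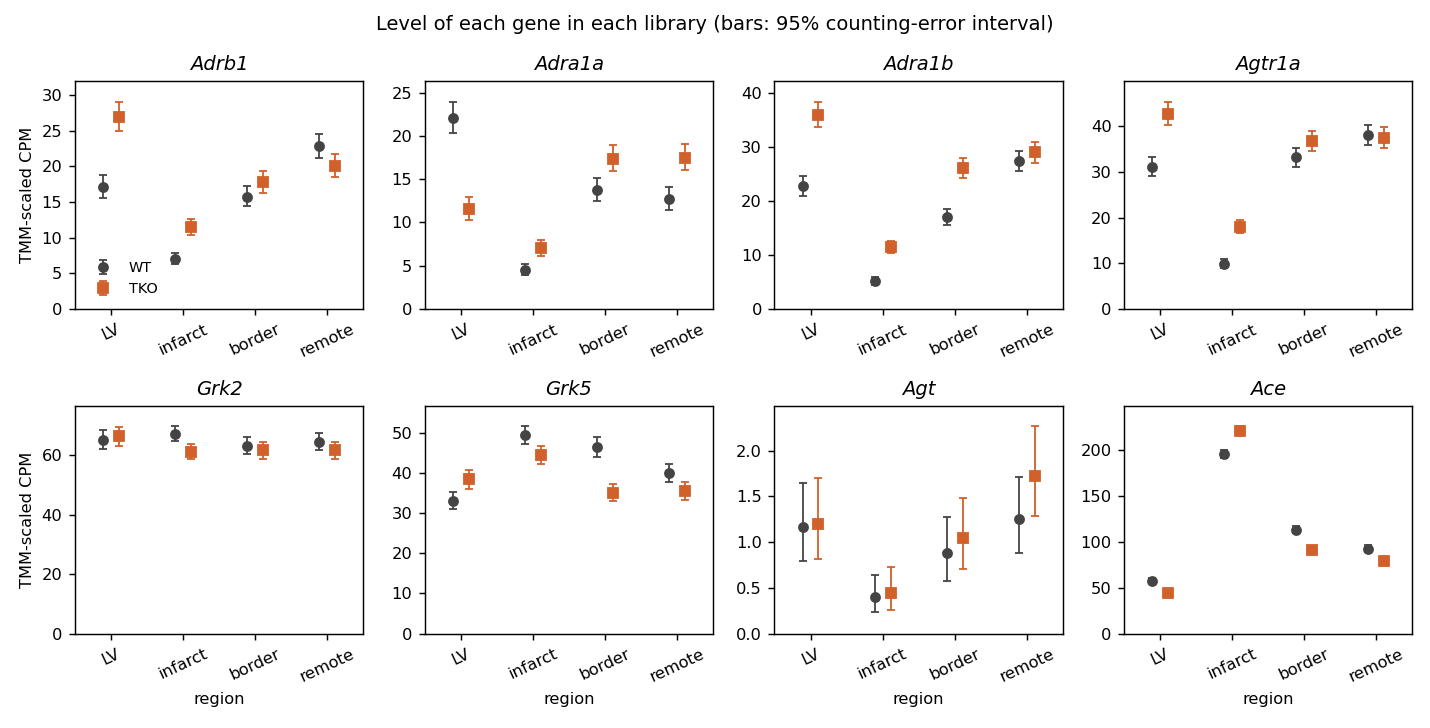
TMM-scaled CPM (vertical axis, starting at 0) of each gene in the left ventricle (LV) and the infarct, border, and remote zones (horizontal axis), with WT as circles and TKO as squares, 1 library each, and bars for the 95% interval from counting error. The 4 receptor genes and *Agt* were lowest in both infarct libraries, *Ace* was highest there, and *Grk2* stayed between 61.1 and 67.2 CPM.

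*Adrb1* (ENSMUSG00000035283, chromosome 19 from 56722199 to 56733113, plus strand) encodes the β1-adrenergic receptor. In WT hearts its level was 17.2 CPM (left ventricle), 7.07 (infarct zone), 15.8 (border zone), and 22.8 (remote zone). The TKO levels were 27.0, 11.4, 17.8, and 20.1 CPM in the same order. Both infarct libraries lay below the other 6, and the intervals of neighbours in level overlapped from the WT remote zone down to the WT border zone. The infarct zone over left ventricle ratio was 0.412 in WT (95% interval from counting error, 0.355 to 0.477) and 0.424 in TKO (0.374 to 0.480). In the fit over all 8 libraries with genotype as a block, *Adrb1* was lower in the infarct zone by a log2 fold change of -1.26 (SE 0.23, edgeR adjusted p = 0.00422). With unscaled totals this was -0.59 (adjusted p = 0.0324), and the ratios were 0.732 and 0.615.

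*Adra1a* (ENSMUSG00000045875, chromosome 14 from 66635251 to 66771168, plus strand) and *Adra1b* (ENSMUSG00000050541, chromosome 11 from 43774606 to 43901210, minus strand) encode the α1A- and α1B-adrenergic receptors, the main α1 subtypes of cardiomyocytes. *Adra1b* had 22.8, 5.15, 17.1, and 27.4 CPM in the same 4 WT regions. Its TKO levels were 36.1, 11.5, 26.1, and 29.1 CPM. Neighbours overlapped from the TKO remote zone down to the WT left ventricle. The infarct zone was again lowest in both genotypes, at 0.226 of the left ventricle in WT (0.193 to 0.265) and 0.319 in TKO (0.283 to 0.358). Of the 7 genes tested, *Adra1b* fell most in the infarct zone, with a log2 fold change of -1.86 (SE 0.23, edgeR adjusted p = 0.00150). With unscaled totals it was -1.20 (adjusted p = 9.30e-04), with ratios of 0.402 in WT and 0.463 in TKO.

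For *Adra1a*, the WT levels were 22.1 CPM for the left ventricle, 4.51 for the infarct, 13.8 for the border, and 12.7 for the remote zone. The TKO levels were 11.5, 6.99, 17.4, and 17.5 CPM, so the left ventricle was the highest library of WT but lay below the border and remote zones in TKO. Its interval overlapped that of the WT remote zone, the next in level. The infarct zone over left ventricle ratio was 0.204 in WT (0.173 to 0.241) but 0.608 in TKO (0.512 to 0.721). Over both genotypes *Adra1a* fell by 1.58 on the log2 scale (SE 0.37, edgeR adjusted p = 0.0120). This call was lost without the WT infarct zone library (-1.24, adjusted p = 0.0989), and the value was -0.80 without the WT and -2.20 without the TKO left ventricle. Unscaled totals gave -0.89 (adjusted p = 0.0350) and ratios of 0.363 and 0.882.

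*Agtr1a* (ENSMUSG00000049115, chromosome 13 from 30336441 to 30382867, plus strand) encodes the type 1a angiotensin II receptor, the main type 1 receptor of the mouse heart. Its WT levels were 31.1, 9.86, 33.2, and 38.0 CPM in the left ventricle, infarct, border, and remote zones, and its TKO levels were 42.7, 18.0, 36.7, and 37.5 CPM. Again both infarct libraries lay apart, below the 31.1 to 42.7 CPM of the other 6, and the intervals of neighbours overlapped from the WT remote zone down to the WT left ventricle. The infarct zone over left ventricle ratio was 0.317 in WT (0.281 to 0.356) and 0.421 in TKO (0.381 to 0.464), with a log2 fold change of -1.43 in the joint fit (SE 0.21, edgeR adjusted p = 0.00219). With unscaled totals the ratios were 0.563 and 0.611 and the log2 fold change was -0.76 (adjusted p = 0.00502). The near-identical *Agtr1b* had 0 to 22 counts per library, with 22 in the WT infarct zone, and how reads were divided between these paralogs is uncertain.

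Neither kinase gene was called in the infarct zone. *Grk2* (ENSMUSG00000024858, chromosome 19 from 4286001 to 4306222, minus strand) encodes G protein-coupled receptor kinase 2, which phosphorylates agonist-bound β-adrenergic receptors so that arrestin binds and signalling stops. Its levels ran from 61.1 CPM in the TKO infarct zone to 67.2 CPM in the WT infarct zone, and the intervals of all neighbours in that order overlapped. The log2 fold change of the infarct zone was -0.04 (SE 0.10, edgeR adjusted p = 0.754), with a sign that depended on the scaling: with unscaled totals it was 0.65 (adjusted p = 0.00371), next to the shift of 0.69 in the median of all genes.

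*Grk5* (ENSMUSG00000003228, chromosome 19 from 60889749 to 61095968, plus strand) encodes the related, membrane-bound kinase 5. In WT it had 33.1 CPM in the left ventricle and 49.4, 46.4, and 39.9 CPM in the infarct, border, and remote zones, against 38.4, 44.4, 35.1, and 35.5 CPM in TKO. Levels in the infarct zone were 1.5 times those of the left ventricle in WT (1.38 to 1.62) and 1.16 times in TKO (1.07 to 1.25). The infarct libraries overlapped the others, and the log2 fold change of 0.39 (SE 0.15) did not pass the test (edgeR adjusted p = 0.0668). Without the TKO left ventricle it was 0.62 and passed (adjusted p = 0.00926), as it did with unscaled totals (1.07, adjusted p = 0.00121).

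*Agt* (ENSMUSG00000031980, chromosome 8 from 124556534 to 124569706, minus strand) encodes angiotensinogen, the precursor from which renin cleaves angiotensin I and which is made mainly in the liver. It had 16 to 52 counts per library and a mean of 0.959 CPM of unscaled totals, under the minimum of 1 CPM for the tests. The infarct zone held 17 counts in WT and 16 in TKO, against 32 and 31 in the left ventricle, which gave ratios of 0.344 (0.179 to 0.639) and 0.374 (0.191 to 0.705), or 0.611 and 0.543 with unscaled totals. Every pair of neighbours in the order of *Agt* levels overlapped. With no minimum level, the infarct zone was lower by a log2 fold change of -1.53 (edgeR adjusted p = 0.0170).

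*Ace* (ENSMUSG00000020681, chromosome 11 from 105967945 to 105989964, plus strand) encodes angiotensin-converting enzyme, a peptidase of the endothelial surface that makes angiotensin II and breaks down bradykinin. It was the one gene of the set called higher in the infarct zone. In WT its level was 58.0 CPM for the left ventricle and 92.8, 114, and 196 CPM for the remote, border, and infarct zones. In TKO the levels were 44.6, 79.4, 91.8, and 221 CPM. The regions had the same order in both genotypes, and among all 8 libraries only the WT remote and TKO border zones, next to each other in level, had overlapping intervals. Against the left ventricle, the infarct zone ratio was 3.37 in WT (3.20 to 3.56) and 4.97 in TKO (4.67 to 5.29), with a log2 fold change of 2.04 in the joint fit (SE 0.16, edgeR adjusted p = 4.47e-04). With unscaled totals the ratios were 6.0 and 7.21 and the log2 fold change was 2.72 (adjusted p = 1.11e-05). An antisense gene, *Gm11651*, shares 295 exon bases with *Ace* and is not among the genes of the table.

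Thus 4 of the 7 genes tested fell and 1 rose in the infarct zone against the left ventricle at an adjusted p under 0.05. Of all 12999 genes tested, 56.8% were called in this comparison, 28.6% lower and 28.2% higher, so being called was common. With unscaled totals 7869 genes were called higher and 1084 lower, and the 4 receptor genes were still among those called lower. For these 5 genes and for *Agt*, both infarct libraries lay below or both above the other 6, which was so for 64% of all genes tested. The same 5 genes were called against the remote zone, where 49.5% of all genes were. There the log2 fold changes were -1.26 for *Adrb1* (edgeR adjusted p = 0.00560), -1.40 for *Adra1a* (0.0208), -1.86 for *Adra1b* (0.00252), -1.49 for *Agtr1a* (0.00323), and 1.29 for *Ace* (0.00234). With unscaled totals *Adrb1* was at -0.63, *Adra1b* at -1.24, *Agtr1a* at -0.86, and *Ace* at 1.92, and these 4 were still called. For *Adra1a* that call was lost with unscaled totals (-0.78, adjusted p = 0.0571) and without the WT infarct (-1.09), WT remote (-1.61), or TKO remote (-1.15) library. Against the border zone these 5 genes also passed, where 43.5% of all genes did, with values from -1.44 for *Adra1a* to 1.04 for *Ace*. The remote zone libraries were also higher in atrial markers. Over 4 of them, the median ratio of the remote zone to the left ventricle was 31.1 in WT and 10.5 in TKO. Their part in the comparison with the remote zone was not tested.

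Between the other regions and the left ventricle no gene of the set was called. For the border zone 0 of the 7 passed, where 0.715% of all genes did (93 genes with edgeR, 576 with DESeq2, and 2333 at an unadjusted p under 0.05). *Ace* came nearest, with a log2 fold change of 1.0 (SE 0.16, edgeR adjusted p = 0.0585). The border over left ventricle ratio was 1.96 for WT (1.84 to 2.08) and 2.06 for TKO (1.92 to 2.21). Over all alternatives the log2 fold change of *Ace* ran from 0.876 to 1.14. *Ace* did not pass with DESeq2 size factors in edgeR (0.996, adjusted p = 0.0601), without the genotype block, or in any other alternative that is not named next. *Ace* passed with unscaled totals (1.10, adjusted p = 0.00900), with DESeq2 (0.996, adjusted p = 5.46e-06), with a minimum of 10 counts in every library (1.01, adjusted p = 0.0410), and without the WT (adjusted p = 0.0461) or TKO (adjusted p = 0.0475) infarct library. Between the remote zone and the left ventricle *Ace* had a log2 fold change of 0.75 (SE 0.16, edgeR adjusted p = 0.280). It did not pass with unscaled totals either (0.80, edgeR adjusted p = 0.104) but did with DESeq2 (adjusted p = 0.00674). In that comparison edgeR called 0 of all genes (0% of 12999) at an adjusted p under 0.05, with 1378 at an unadjusted p under 0.05 and 162 called by DESeq2.

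The receptor genes were measured beside large shifts in cell type markers. Of 10 cardiomyocyte markers, 9 were lower and 1 (*Myh7*) higher in the infarct zone, and the median over the list was 0.248 of the left ventricle in WT and 0.491 in TKO, next to 0.204 to 0.412 for the 4 receptor genes in WT and 0.319 to 0.608 in TKO. All 8 fibroblast markers were higher, with a median fold of 8.93 in WT and 6.98 in TKO, as were the 7 leukocyte markers tested (4.61 and 4.42) and the 4 smooth muscle markers (4.17 and 2.89). The 5 red blood cell markers were higher too (2.21 and 1.89), as were 3 of the 4 epicardial or mesothelial markers, whose median fold in the fit over 8 libraries was 8.21. The 7 endothelial markers had medians of 0.883 and 0.986, with 1 higher (*Vwf*) and 1 lower (*Kdr*). In whole tissue, fewer cells of a type and less RNA per cell cannot be told apart, and the part of these markers in the changes of the 8 genes was not tested.

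**Figure D2:**
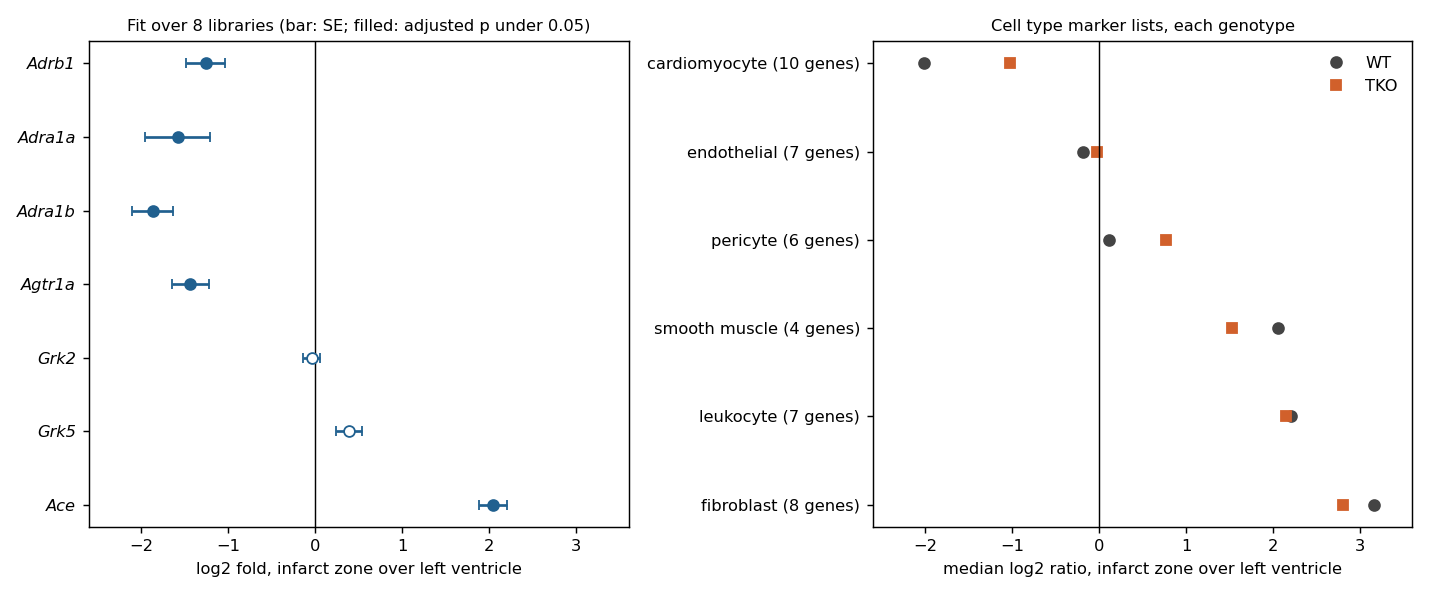
Left, log2 fold change of the infarct zone over the left ventricle for the 7 genes tested (points, filled where the edgeR adjusted p was under 0.05; bars, SE). Right, median log2 ratio of the same comparison for 6 cell type marker lists in WT (circles) and TKO (squares). The 4 receptor genes lay between -1.86 and -1.26 and *Ace* at 2.04, while cardiomyocyte markers were lower and fibroblast, leukocyte, and smooth muscle markers higher in both genotypes.

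The comparison of TKO with WT was made for each region and then over all regions as blocks. In the infarct zone, the 4 receptor genes each had more counts per scaled total in TKO. The TKO over WT ratio was 1.62 for *Adrb1* (1.39 to 1.89), 1.55 for *Adra1a* (1.28 to 1.88), 2.23 for *Adra1b* (1.89 to 2.64), and 1.82 for *Agtr1a* (1.61 to 2.07). *Adra1b* was the one gene of the set past 2-fold in any region. Of all genes tested, 3.83% were past 2-fold in the infarct zone, and 5.59%, 4.49%, and 3.55% in the left ventricle, border zone, and remote zone. With unscaled totals the infarct zone ratio was 1.32 for *Adrb1*, 1.26 for *Adra1a*, 1.82 for *Adra1b*, and 1.49 for *Agtr1a*. The median ratio of the 10 cardiomyocyte markers between the same libraries was 1.91, with all 10 higher in TKO, and their part in the receptor ratios was not tested. The median ratios of the fibroblast markers in the infarct, border, and remote zones were 0.810, 0.620, and 0.711, those of the leukocyte markers 0.752, 0.673, and 0.657, those of the 4 smooth muscle markers 0.554, 1.11, and 0.932, and those of the atrial markers 0.110, 0.480, and 0.347, and their part was not tested either. *Grk2* (0.910, 0.860 to 0.962) and *Grk5* (0.898, 0.840 to 0.959) were lower in the TKO infarct zone, and *Ace* (1.13, 1.10 to 1.17) was higher. The size of these differences depended on the scaling. With unscaled totals the ratios were 0.742 for *Grk2*, 0.732 for *Grk5*, and 0.922 for *Ace*. The 17 and 16 counts of *Agt* gave 1.11 (0.527 to 2.34), and no difference could be detected at that depth.

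In the left ventricle, *Adrb1* (1.57, 1.40 to 1.77), *Adra1b* (1.58, 1.43 to 1.76), *Agtr1a* (1.37, 1.25 to 1.5), and *Grk5* (1.16, 1.06 to 1.27) were also higher in TKO, while *Ace* (0.768, 0.711 to 0.829) and *Adra1a* (0.520, 0.451 to 0.599) were lower. The border zone had a ratio of 1.53 for *Adra1b* (1.36 to 1.71), 1.26 for *Adra1a* (1.10 to 1.44), and 1.11 for *Agtr1a* (1.02 to 1.21). Ratios there were 0.756 for *Grk5* (0.698 to 0.820) and 0.808 for *Ace* (0.769 to 0.850). In the remote zone, *Adra1b* (1.06, 0.963 to 1.17) and *Agtr1a* (0.986, 0.908 to 1.07) had intervals that held 1, *Adrb1* was at 0.881 (0.789 to 0.984), and *Adra1a* was at 1.37 (1.20 to 1.57). *Grk5* (0.888, 0.817 to 0.965) and *Ace* (0.856, 0.810 to 0.904) were lower in TKO there. *Ace* was thus below 1 in every region but the infarct zone. *Adra1b* was thus the only gene with a ratio above 1 in all 4 regions apart from *Agt*, whose intervals all held 1.

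**Figure D3:**
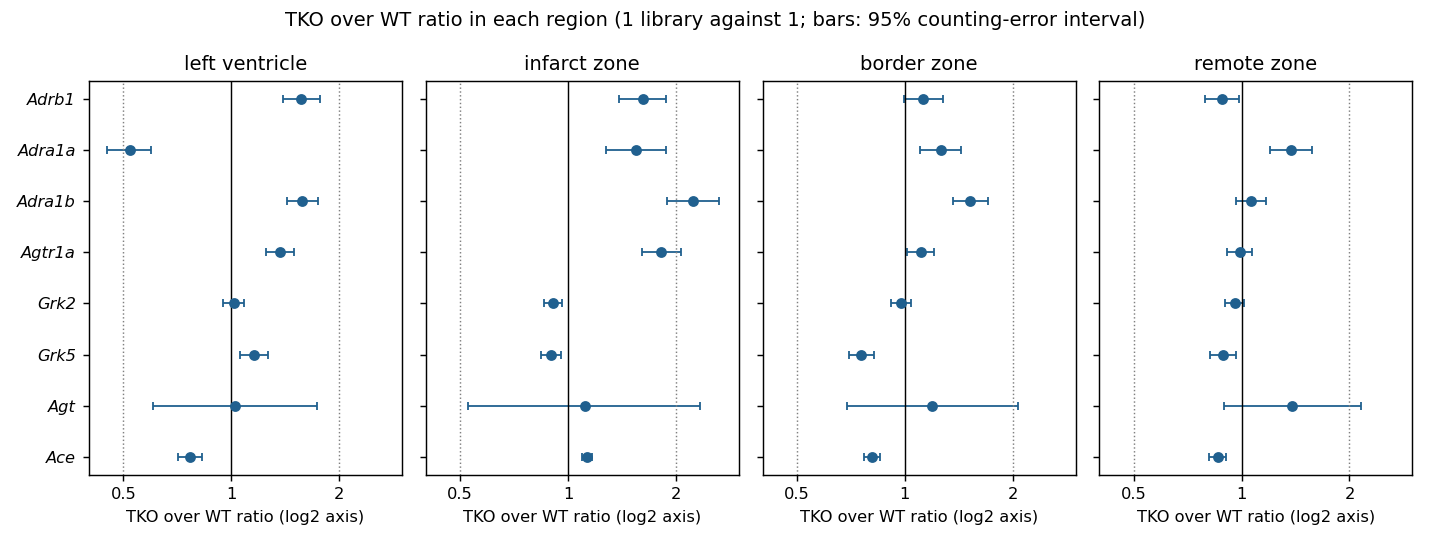
TKO over WT ratio of each gene (log2 horizontal axis) in each region, 1 library against 1, with bars for the 95% interval from counting error and dotted lines at 2-fold. *Adra1b* in the infarct zone, at 2.23, is the one point beyond 2-fold, and *Adra1a* was at 0.520 in the left ventricle but between 1.26 and 1.55 in the other regions.

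Across the 4 regions, none of the 7 genes tested passed for TKO against WT, where 0.138% of all genes did (18 genes with edgeR, 342 with DESeq2, and 2109 at an unadjusted p under 0.05). *Adra1b* had the largest value, a log2 fold change of 0.61 (SE 0.16, edgeR adjusted p = 0.202), and passed with DESeq2 (0.63, adjusted p = 0.0399). *Agtr1a* followed at 0.35 (SE 0.15, edgeR adjusted p = 0.306), *Adrb1* at 0.33 (SE 0.16, adjusted p = 0.349), *Ace* at -0.18 (SE 0.11, adjusted p = 0.434), *Grk5* at -0.13 (SE 0.11, adjusted p = 0.557), *Adra1a* at 0.12 (SE 0.26, adjusted p = 0.846), and *Grk2* at -0.05 (SE 0.07, adjusted p = 0.710). These tests treat regions as replicates of a genotype, those between regions treat genotypes as replicates of a region, and neither kind of test measures the spread between mice. The zones were cut from infarcted hearts, so libraries of different zones may hold RNA of the same mice, and the regions may rest on fewer mice than libraries.

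Whether the genotype difference itself varied between regions was tested as the departure of 1 region from the other 3. *Adra1a* was the only gene of the set called, for the left ventricle, with a departure of -1.41 on the log2 scale (SE 0.18, edgeR adjusted p = 0.0455), and 0.646% of all genes were called there. It rests on 606 counts in the WT and 298 in the TKO left ventricle, and the adjusted p was 0.0217 with unscaled totals and 0.0442 with DESeq2 size factors. The same pair of libraries differed in adipocyte markers, with a summed level of 59.95 CPM in WT and 0.965 CPM in TKO, 370 against 6 counts of *Adipoq*, and *Plin1* at 34 against 0 counts. All 5 markers of the list were lower in TKO there, and the other libraries had summed levels of 3.32 to 14.5 CPM. The summed cardiomyocyte markers were at 42442 and 43325 CPM, with *Myh6* at 244473 and 153941 counts. The part of these differences in the *Adra1a* value was not tested. For the infarct zone, none of the 7 genes departed from the other regions at an adjusted p under 0.05 (edgeR adjusted p = 0.501 for *Ace* and 0.550 for *Agtr1a*, the lowest of the set), and 0.00769% of all genes did.

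Other genes of these pathways were followed in lists by role. Among the adrenergic receptors, *Adra1d*, the third α1 subtype, fell by 1.40 on the log2 scale in the infarct zone against the left ventricle (edgeR adjusted p = 0.0102). The median of all genes tested was 0.02 in this comparison. In the list of receptor kinases, arrestins, and RGS proteins, which shorten receptor signals, 5 of 11 tested rose and 2 fell. The counts of this and the following lists stand beside 28.2% of all genes called higher and 28.6% called lower, and shares near these, as in the lists of G proteins and of renin-angiotensin genes, are no result about a list. Both β-arrestin genes rose, *Arrb2* by 1.78 (adjusted p = 4.35e-04) and *Arrb1* by 1.10 (adjusted p = 0.00126), and *Rgs2*, a regulator of Gq, fell by 1.29 (adjusted p = 0.00230). *Rgs5*, a pericyte gene, fell by 0.52 (adjusted p = 0.0322). Of the 6 pericyte markers, *Rgs5* among them, 3 were higher and 2 lower in the infarct zone. Their median ratio to the left ventricle was 1.09 in WT and 1.71 in TKO.

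Downstream of the β-adrenergic receptors, the list of G proteins, adenylyl cyclases, and protein kinase A had 5 of 20 genes higher and 6 lower. *Adcy7*, an adenylyl cyclase common in blood cells, rose by 2.82 (edgeR adjusted p = 5.26e-04) and *Gnai3*, an inhibitory α subunit, by 1.06 (adjusted p = 6.75e-04). *Prkaca*, a catalytic subunit of protein kinase A, fell by 1.23 (adjusted p = 0.00195) and *Gna12* by 1.03 (adjusted p = 0.00174). *Prkacb*, another catalytic subunit, was not called (0.10, adjusted p = 0.373). Of 16 phosphodiesterases and cAMP anchors, 2 rose and 7 fell, among them *Pde3b* at 1.31 (adjusted p = 0.00262), *Akap12* at 0.60 (adjusted p = 0.0345), *Akap1* at -1.64 (adjusted p = 7.10e-04), and *Popdc2* at -1.35 (adjusted p = 0.00225). All 11 cardiac targets tested fell, with *Tnni3*, cardiac troponin I, at -1.84 (adjusted p = 0.00283) and *Pln*, phospholamban, at -1.56 (adjusted p = 0.00483). *Tnni3*, *Pln*, and *Ryr2* of that list are also among the cardiomyocyte markers.

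In the Gq pathway list, 6 of 14 genes were higher and 2 lower. *Nfatc4*, a calcineurin-dependent transcription factor, rose by 2.08 (edgeR adjusted p = 0.00109) and *Prkcd*, protein kinase Cδ, by 1.67 (adjusted p = 6.92e-04), while *Prkce*, protein kinase Cε, fell by 0.90 (adjusted p = 0.00176) and *Rcan1* by 0.67 (adjusted p = 0.0207). Of the 7 genes of catecholamine synthesis, uptake, and breakdown that were tested, 1 was higher and 3 were lower. *Maoa*, monoamine oxidase A, rose by 0.96 (adjusted p = 0.00499), and the transporter gene *Slc22a3* fell by 1.56 (adjusted p = 0.00630) and *Maob*, monoamine oxidase B, by 1.13 (adjusted p = 0.00474).

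Within the renin-angiotensin list, 4 of 13 tested genes rose and 5 fell. Next to *Ace*, *Anpep*, aminopeptidase N, which trims angiotensin peptides, rose by 2.25 on the log2 scale (edgeR adjusted p = 2.27e-04). *Mme*, neprilysin, which breaks down natriuretic peptides and makes angiotensin 1-7, fell by 2.67 (adjusted p = 0.00355), the lowest value of the list, with *Agtr1a* next. *Ren1* (renin) had 3 to 17 counts and *Agtr2* (type 2 receptor) 0 to 3 counts per library, so both were under the minimum level. Of 13 other cardiac receptor and ligand genes, 4 rose and 3 fell, with *Adora2b* at 1.34 (adjusted p = 0.0190), *Ptger4* at 0.97 (adjusted p = 0.0174), *Adora2a* at -1.17 (adjusted p = 0.00119), and *Chrm2*, the muscarinic receptor of the vagus, at -0.82 (adjusted p = 0.00433). For TKO against WT across regions and for the border zone against the left ventricle, edgeR called 0 genes of these 8 lists. For the departure of the left ventricle from the other regions in TKO against WT, where *Adra1a* was called and 0.646% of all genes were, 4 genes of the lists passed, all lower. *Pde7a*, a cAMP phosphodiesterase, departed by -1.32 (edgeR adjusted p = 0.0455), *Adora1*, an adenosine receptor gene, by -1.26 (adjusted p = 0.0455), and *S1pr1*, a sphingosine 1-phosphate receptor gene, by -1.19 (adjusted p = 0.0455). *Itpr1*, an inositol trisphosphate receptor gene (adjusted p = 0.0157), had 0 counts in the TKO left ventricle, 354 in the WT left ventricle, and 266 to 524 in the other libraries, of which 3 also held 354.

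**Figure D4:**
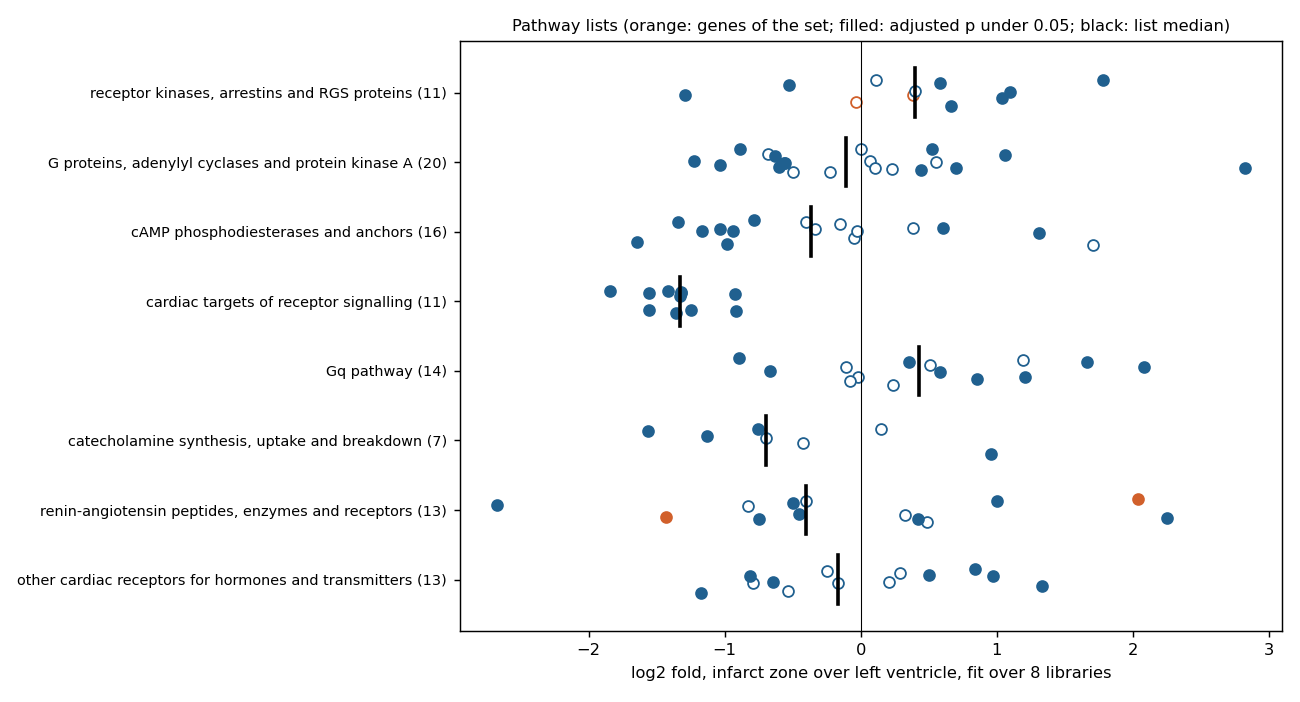
Log2 fold change of the infarct zone over the left ventricle in the fit over 8 libraries for each tested gene of 8 lists (number tested in parentheses), filled where the edgeR adjusted p was under 0.05 and orange for the genes of the set, with the list median as a black bar. The 11 cardiac targets all lay below 0, and in the renin-angiotensin list *Ace* lay at 2.04 and *Agtr1a* at -1.43.

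For each gene, the genes with the highest Pearson's r of log2 CPM over the 8 libraries were picked among all 12999 genes tested. This measure does not compare the size of changes. For example, before scaling *Ccnh* had 677 to 817 counts per library and *Adra1b* 218 to 934. The r values were taken on scaled levels. The TMM factors were 1.54 and 1.26 in the WT and TKO infarct zones and 0.866 to 0.956 elsewhere, so scaled levels of *Ccnh* varied more than its counts. By r, *Adra1b* was nearest to *Ccnh* (r = 0.999), *Chchd7* (0.998), and *Mrpl34* (0.997), *Agtr1a* to *Emc2* (0.998), *Mrps27* (0.997), and *Mrpl18* (0.997), and *Adrb1* to *Slc66a2* (0.993), *H2ac19* (0.992), and *Ndufaf3* (0.991). *Adra1a* was nearest to *Phyhd1* (0.992), *Ptpn3* (0.991), and *Actr1a* (0.990), and *Ptpn3* also had fewer counts in the TKO than in the WT left ventricle, 1440 against 2138. *Ace* was nearest to *Il34* (0.993), *Thsd7a* (0.991), and *Fibin* (0.990), with 8751 and 7269 counts of *Fibin* in the WT and TKO infarct zones and 334 and 238 in the left ventricles. *Grk5* was nearest to *Zfp697* (0.987), *Zfp764* (0.971), and *Hdc* (0.969), and *Grk2*, which hardly varied, to *Plekhg1* (0.933), *Alkbh4* (0.928), and *Rps3* (0.919). Within the set, r was 0.983 between *Adrb1* and *Adra1b*, 0.978 between *Adra1b* and *Agtr1a*, and 0.737 between *Adrb1* and *Adra1a*. These values describe 8 libraries that share regions, genotypes, and scaling.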

How the data were processed

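RNA sequencing covered 8 mouse heart libraries. The authors trimmed reads with Trim Galore 0.6.5, quantified transcripts of the mm10 build with kallisto 0.46, and summed them to genes. They deposited estimated counts per gene as whole numbers without normalization, which were used as integers. Of 16994 genes, 153 have no symbol and were used by identifier.

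Counts were analysed in R 4.3.3 with edgeR 4.0.16 (TMM over 8 libraries). Genes whose mean reached 1 CPM of unscaled totals (12999) were tested with edgeR's quasi-likelihood test in an additive fit of region and genotype (3 residual degrees of freedom). For departures a genotype by region term was added, which left fewer residual degrees of freedom. Benjamini-Hochberg adjustment was made over all genes tested, with a threshold of 0.05. Ratios between 2 libraries carry exact (Clopper-Pearson) 95% intervals. Reads had no molecular identifiers, so intervals cover counting error only. Genes past 2-fold were counted after a prior count of 2. DESeq2 1.42.0 (Wald test), other scalings and filters, and fits without a library or a block were alternatives. On simulated data, the genotype test recovered 77.5% of 2-fold and 95.5% of 4-fold changes, the infarct zone test 64.9% and 88.8%, and the left ventricle departure test 6.36% and 62.2%. The tests also called 7, 14, and 9 unchanged genes, in that order. In each simulation only a small set of genes was changed, and all others had the same mean level in every library. In the data 56.8% of genes were called for the infarct zone, so these rates may not hold for the tests reported here.

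Gene positions come from GENCODE M21 and sequences from RefSeq. Named genes were the 8 genes of the set, *Tigar*, the 2 highest and 2 lowest called genes of each pathway list for the infarct zone against the left ventricle, and the 3 genes most correlated with each gene of the set. *Adra1d*, *Ren1*, *Agtr1b*, *Agtr2*, *Ryr2*, *Itpr1*, *Pde7a*, *Adora1*, *S1pr1*, and *Prkacb*, and the single markers given with counts, were named after their values were seen. The members and lists were chosen with earlier results of these data known. The list of adrenergic receptors is not reported as a whole here, since 1 result of it was left out. Figures were drawn with Python 3.11.15 and matplotlib 3.10.9.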

Additional observations from a re-analysis of the deposited data

Results flagged for a closer look

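The TKO over WT difference of *Adra1a* was not the same in every region. The departure of the left ventricle from the infarct, border, and remote zones was -1.41 on the log2 scale (edgeR adjusted p = 0.0455). The TKO over WT ratio was 0.520 in the left ventricle against 1.55, 1.26, and 1.37 in the infarct, border, and remote zones. The value rests on 1 WT and 1 TKO library of left ventricle.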

How the results depend on the processing

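No analysis paired by mouse was possible because there was 1 library for each genotype and region. Libraries were matched only by region and by genotype, as blocks in the fit. Of 291 refits of tests on the 8 genes, 272 kept direction and side of the threshold, 5 were weaker, 9 stronger, and 5 reversed. Reversed were *Grk2* in the infarct zone against the left ventricle with unscaled totals (0.65) and without the TKO left ventricle or TKO infarct zone (-0.094 to 0.017 over the libraries left out), and *Adra1a* for TKO against WT without the infarct or the remote zone (-0.042 to 0.46 over the regions left out). Of 400 recomputed ratios, 27 moved out of their counting interval, all with unscaled totals, and none past 2-fold changed direction. The causes were not tested.

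Counts of genes called moved more. For TKO against WT (18 genes) they were 56 with unscaled totals (12 higher, 44 lower), 342 with DESeq2 (128 and 214), and 8 without the region block. Against the left ventricle, the border zone (93) gave 200 with unscaled totals, 576 with DESeq2, and 0 without the genotype block, and the remote zone (0) gave 18, 162, and, with no filter or at least 10 counts per library, 3. The border zone against the remote zone (0) gave 3 and 59. The departure of the left ventricle (84) gave 275 with unscaled totals, a choice added after the data were seen. With 1 library or region left out, counts ran from 3 to 83 for the genotypes, 4848 to 7190 for the infarct zone against the left ventricle (7385), 2319 to 7470 against the remote zone (6430), 414 to 6831 against the border zone (5656), 1 to 386 for the border zone and 0 to 65 for the remote zone against the left ventricle, and 0 to 1 between border and remote zones. At 3 residual degrees of freedom, and fewer for the departures, 2-fold differences can be missed, and the 16 to 52 counts of *Agt* limit its ratios.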
